A study of Solanum tuberosum with 6 samples.

Results

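The growth hormone genes of the potato leaf were followed after salt watering, through the spotted cDNA clones whose annotation names auxin, gibberellin, cytokinin, brassinosteroid or a regulator of the GRAS family. A clone was taken when its annotation, without the species name, held one of a fixed set of words (for example auxin, SAUR, indole-3-acetic, gibberellin, GAST, GASA, RSI-1, cytokinin, brassinosteroid, SCARECROW). Annotations with ADP-ribosylation, abscisic or ethylene were excluded. Of 10499 clones, 64 were taken: 39 for auxin, 12 for gibberellin, 2 for cytokinin, 3 for brassinosteroid and 8 for GRAS regulators. They carried 44 distinct annotations, each naming the most similar known gene and its species, often not potato. Among the 64 clones, 17 share at least 1 sequence assembly with another of them in the deposited table, so some genes were measured by several clones.

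Auxin enters cells through influx carriers and releases auxin response factors, which are transcription factors, from Aux/IAA repressors. Its early targets include the small SAUR proteins, which promote cell expansion. Gibberellin is perceived by GID1 receptors, which lead to the breakdown of the DELLA repressors, members of the GRAS family, and oxidases make or inactivate the hormone. Cytokinin signals through histidine kinases and response regulators and is stored or inactivated as glucosides, and brassinosteroid is perceived by receptor kinases with leucine-rich repeats.

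Plants of the potato (Solanum tuberosum) cultivar PS3 had been multiplied in vitro and grown in pots for 2 months. Salt-treated plants received 75 mL of 150 mM NaCl, and control plants received tap water in equal volume. The first and second leaves were taken 3 days and 1 day later, from different plants on each day, and every array compared salt RNA with control RNA of 1 biological replicate, with 3 arrays per day. Salt RNA carried Cy3 on replicates 1 and 3 and Cy5 on replicate 2 of both days. All plants were of 1 cultivar, and whole leaf pieces were used, so fewer cells of a type and less RNA per cell cannot be told apart.

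Every value is a log ratio of salt over control, with no level behind it, so neither the tissue nor the order of expression among genes could be read from it. That direction is the likely one, but no source states it: the labels give the control as the reference and name it before salt, and within each day arrays of opposite dye orientation correlated above 0. A dye effect particular to each clone could also produce such a correlation if the ratios had not been turned. No source gives the log base. Base 2 was taken, and folds hold for that base only.

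The arrays measured 7867 to 10381 clones on day 3 and 9869 to 10139 on day 1, and 45 of the 64 hormone clones were measured on all 6 arrays. Over all clones, replicate 1 of day 3 stood apart from the day 1 arrays, with r between -0.086 and 0.031. Over the hormone clones the same array gave r of 0.56, 0.28 and 0.57 with replicates 1, 2 and 3 of day 1 (n = 64, 62 and 61 clones, which are not independent of each other). Such correlations weigh extreme clones most, such as the GAST1 clone STMJC16 (-1.29 and -4.88 on replicate 1 of day 3 and day 1). The values of r without these clones were not tested. The median ratio of the hormone clones on an array lay between -0.06 and 0.00 on day 3 and between 0.01 and 0.03 on day 1. The typical hormone clone thus lay near 0 on every array.

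Most of these clones did not pass the test on either day. On day 3, 2 of 57 tested clones were higher in salt, 6 were lower and 49 passed neither way. That is 14.0% of the hormone clones, against 6.41% of all 9032 clones tested (1.96% higher and 4.45% lower). On day 1, 5 of 63 were higher, 9 were lower and 49 passed neither way, which is 22.2% against 18.5% of all 9738 clones (8.11% higher and 10.4% lower). The test was limma with 1 coefficient per day and a dye term for each clone, at a Benjamini-Hochberg adjusted p under 0.05 over all clones, and p-values below are from it. The median hormone clone was at 0.02 on day 3 and 0.00 on day 1, against 0.01 and 0.03 over all clones tested. The share on day 1 was thus near that of all clones, and the share on day 3 rests on 8 clones.

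Of the 16 clones called on at least 1 day, 5 were lower on both days and 1 was higher on both. Another 4 were higher on day 1 with no call on day 3, 3 were lower on day 1 with no call on day 3, and 1 was lower on day 1 and was not tested on day 3. On day 3 alone, 1 was higher and 1 was lower. The ratio itself differed between the days in 4 of 57 clones (7.02%, against 11.6% of all 9028 clones tested), 2 of them with a higher ratio on day 3 (6.46% of all clones) and 2 with a higher ratio on day 1 (5.12%). The other 48 clones passed on neither day. Of those not called, the 95% confidence interval lay within 1 log2 unit of 0 in 47 of 49 clones on day 3 and in 49 of 49 on day 1. It lay within 0.5 of 0 in only 28 of 49 on day 3 and 34 of 49 on day 1, so smaller changes could have been missed.

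Counts of calls depended on single arrays. Without replicate 2 of day 1, the day 1 calls fell to 2 of the hormone clones (3.85%, against 6.11% of all clones), and without replicate 1 of day 1 to 4 (7.55%, against 11.2%). Without replicate 3 of day 1 they numbered 9 (16.1%, against 12.2%). The day 3 calls fell to 4 without replicate 2 of day 3 (8.33%, against 2.19% of all clones). They also fell to 4 without replicate 1 of day 1 (7.41%, against 4.43%), and to 5 without replicate 2 of day 1 (9.43%, against 4.62%).

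**Figure D1:**
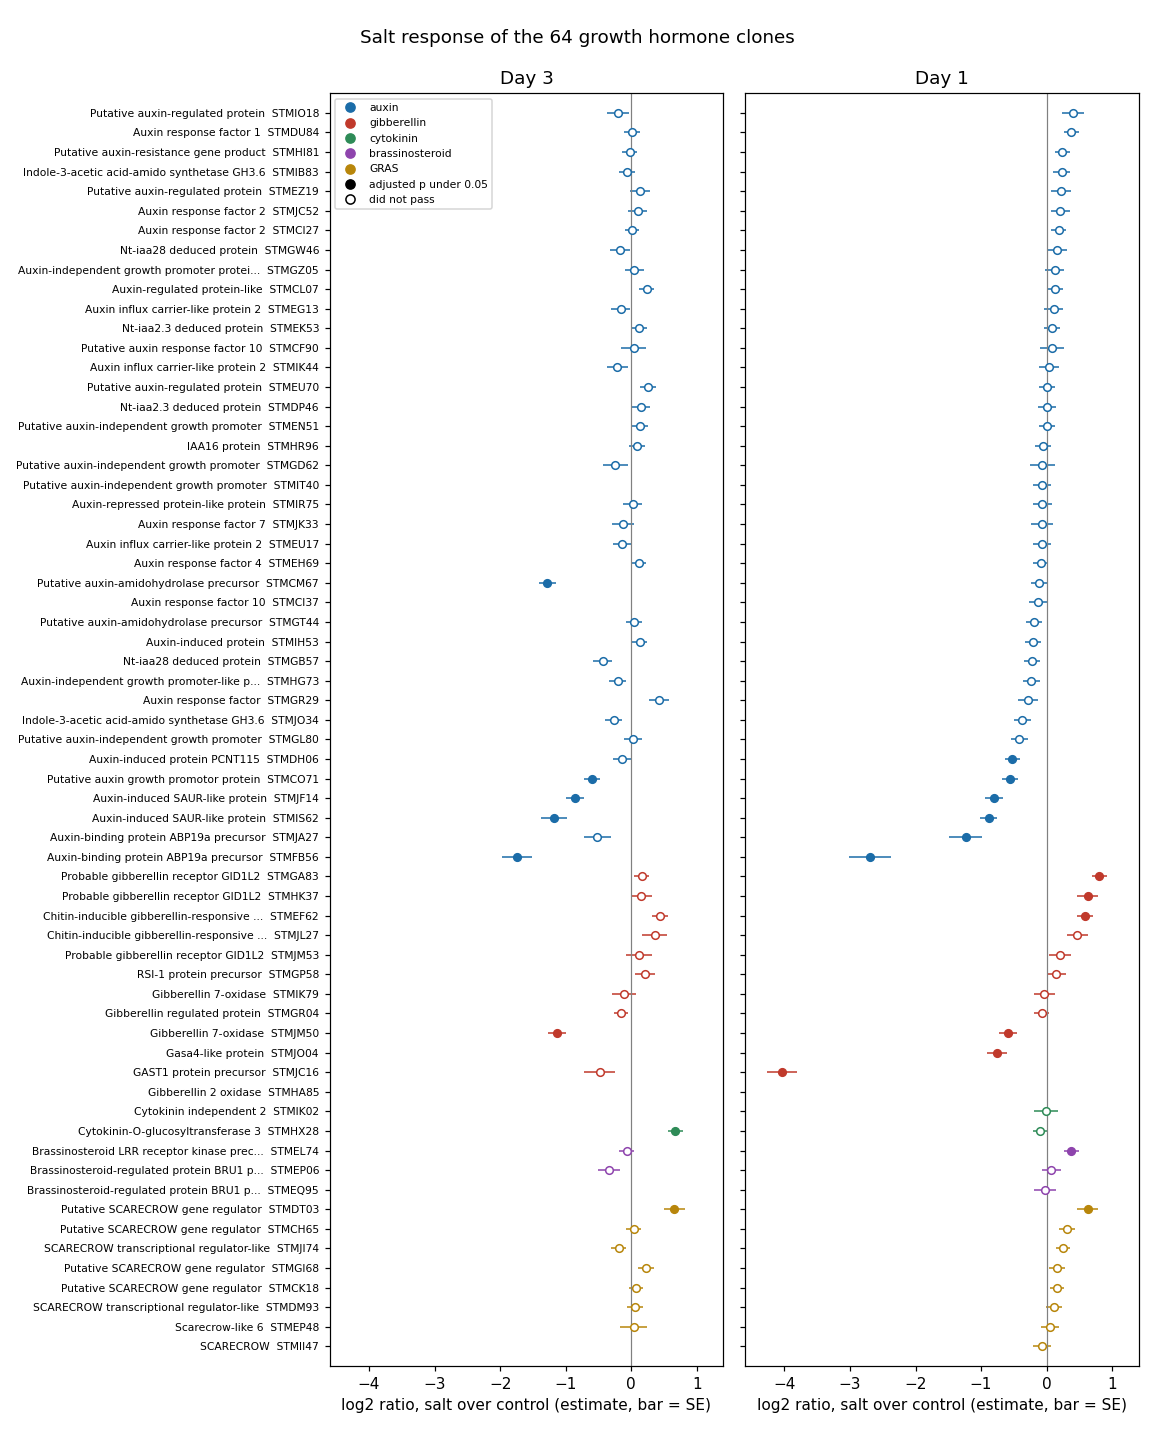
Fitted log2 ratio of salt over control for the hormone clones, by hormone group, on day 3 (left) and day 1 (right), with bars for the SE, filled points for clones that passed the test and no point where a clone was not tested. Most clones lie near 0 on both days, and the lowest point is the GAST1 clone on day 1 at -4.04.

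Among the gibberellin-regulated peptides, the clone annotated as GAST1 (STMJC16) fell steeply on day 1. GAST1 is a small cysteine-rich protein of tomato whose transcript rises with gibberellin. The log2 ratios of STMJC16 were -1.29, -0.09 and -0.38 on replicates 1, 2 and 3 of day 3, and -4.88, -3.82 and -3.73 on those of day 1. All 3 day 1 arrays lay below all 3 day 3 arrays, and replicate 1 was the lowest of both days. The fitted ratio was -0.48 on day 3 (SE 0.23, adjusted p = 0.324) and -4.04 on day 1 (SE 0.23, adjusted p = 5.3e-05), so that salt leaves held 16.4-fold less of it than control leaves on day 1. It had the lowest fitted ratio of the 9738 clones tested on day 1, or the highest if the ratios ran as control over salt. The difference of day 3 minus day 1 was 3.56 (SE 0.32, adjusted p = 0.000439), the highest of the 9028 clones tested for it, or the lowest with the ratios turned. It kept the day 1 call and the difference with any single array left out. On day 3 the 95% confidence interval ran from -1.01 to 0.05.

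The other peptides of this family moved less. The Gasa4-like clone (STMJO04), named after a gibberellin-regulated Arabidopsis peptide, gave -0.18 on the 1 day 3 array that measured it. On day 1 it gave -0.48, -0.78 and -0.98. Its ratio was below 0 on all 4 arrays, and on day 1 it fell (log2 ratio -0.76, SE 0.15, adjusted p = 0.0135), while day 3 was not tested. The clone annotated as gibberellin regulated protein (STMGR04) gave -0.16 on day 3 and -0.08 on day 1. The RSI-1 clone (STMGP58), named after an auxin-induced tomato root gene, gave 0.21 and 0.15 on these days. Neither passed the test on either day.

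Among the enzymes of gibberellin metabolism, one of 2 clones annotated as gibberellin 7-oxidase, an enzyme known from pumpkin that acts early in gibberellin synthesis, fell on both days. STMJM50 gave -1.27, -0.73 and -1.58 on day 3 and -0.65, -0.66 and -0.63 on day 1. All arrays were below 0, and the day 3 arrays were lower and wider apart. The fitted ratios were -1.14 on day 3 (SE 0.14, adjusted p = 0.00154) and -0.59 on day 1 (SE 0.14, adjusted p = 0.0193), and their difference of -0.54 did not pass (adjusted p = 0.118). The day 1 call was lost without replicate 1 or replicate 2 of day 1, and with single arrays left out the day 1 ratio ranged from -0.66 to -0.29. The other clone with this annotation (STMIK79), which shares no assembly with it, gave 0.23 and -0.45 on the 2 day 3 arrays that measured it and 0.28, -0.71 and 0.83 on day 1. It was negative on replicate 2 alone, the replicate with the other dye orientation, and it passed on neither day. Gibberellin 2-oxidase, which inactivates gibberellin, was measured by 1 clone (STMHA85) on 3 arrays and was not tested. It gave 0.24 on day 3 and 0.49 and 0.66 on day 1.

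The clones annotated as the probable gibberellin receptor GID1L2, one of the esterase-like relatives of GID1, were higher on day 1. STMGA83 gave 0.37, -0.02 and 0.22 on day 3 and 0.82, 0.76 and 0.93 on day 1. The days did not overlap. Its fitted ratio was 0.16 on day 3 (SE 0.11, adjusted p = 0.539) and 0.80 on day 1 (SE 0.11, adjusted p = 0.00144), and the difference of -0.64 passed (adjusted p = 0.0296). The difference lost its call with 5 of the 6 arrays left out in turn. STMHK37 gave 0.33, 0.05 and -0.10 on day 3 and 0.41, 1.10 and 0.18 on day 1. It rose on day 1 (log2 ratio 0.63, SE 0.16, adjusted p = 0.0275), with replicate 2 well above the others. With single arrays left out the day 1 ratio of STMHK37 ranged from 0.26 to 0.76, and its call was lost without replicate 1 or replicate 2 of day 1. STMJM53, which shares an assembly with STMGA83, gave -0.12 and 0.36 on day 3, against 0.56, 0.12 and -0.14 on day 1. It passed on neither day (adjusted p = 0.461 on day 1). The call on day 1 was thus made in 2 of the 3 GID1L2 clones (66.7%, against 8.11% of all clones higher), and in neither of them without replicate 2 of day 1.

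The clone annotated as chitin-inducible gibberellin-responsive protein 1 (STMEF62), a GRAS protein of rice, was above 0 on all 6 arrays. It gave 0.19, 0.66 and 0.36 on day 3 and 0.64, 0.57 and 0.45 on day 1. The ranges of the days overlapped, and the fitted ratio passed on day 1 (0.59, SE 0.12, adjusted p = 0.00938) and not on day 3 (0.44, SE 0.12, adjusted p = 0.0699), with no difference called between the days (-0.15, adjusted p = 0.639). STMJL27, which shares an assembly with it, gave -0.06 and 0.77 on day 3 and 0.60, 0.58 and -0.05 on day 1. Its fitted ratios of 0.35 and 0.46 were of the same sign and did not pass (adjusted p = 0.384 on day 3 and 0.0865 on day 1). The day 1 call of STMEF62 was lost without replicate 1 or replicate 2 of day 1. Of the gibberellin clones in all, 0 were higher and 1 was lower of 10 tested on day 3 (10.0%, against 6.41% of all clones), and 3 were higher and 3 lower of 11 tested on day 1 (54.5%, against 18.5%). The day 1 count of 6 fell to 1 without replicate 2 of day 1 and to 2 without replicate 1 of day 1. The share called over all clones fell to 6.11% and 11.2% in the same fits.

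The auxin clones that passed were lower in salt. On day 3, 5 of 37 were lower (13.5%, against 4.45% of all clones) and 0 were higher, and on day 1, 6 of 39 were lower (15.4%, against 10.4%) and 0 were higher. The median auxin clone lay at -0.02 on day 3 and -0.07 on day 1. The day 1 count fell to 1 without replicate 2 of day 1 and to 2 without replicate 1 of day 1. The day 3 count fell to 2 without replicate 1 of day 1 and to 3 without replicate 2 of either day. Over all clones the share called on day 1 fell to 6.11% without replicate 2 and to 11.2% without replicate 1 of day 1. The share on day 3 fell to 4.43% without replicate 1 of day 1. Without replicate 2 it was 4.62% (day 1 array left out) and 2.19% (day 3 array left out). On day 1, 1 auxin clone was called higher without replicate 1 of day 3, with only clones on all arrays or at an adjusted p under 0.1.

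Both clones annotated as SAUR-like, small proteins whose transcripts respond early to auxin, fell on both days. STMIS62 gave -1.38 and -1.08 on replicates 1 and 3 of day 3 and -0.83, -0.84 and -1.01 on day 1. Every measured array was at least 0.8 below 0. The fitted ratio was -1.19 on day 3 (SE 0.20, adjusted p = 0.00967) and -0.88 on day 1 (SE 0.13, adjusted p = 0.00253). STMJF14 gave -1.07, -0.57 and -1.004 on day 3 and -0.94, -0.93 and -0.61 on day 1. Its fitted ratio was -0.86 on day 3 (SE 0.14, adjusted p = 0.00563) and -0.80 on day 1 (SE 0.14, adjusted p = 0.00386), so salt leaves held 1.81-fold less on day 3 and 1.74-fold less on day 1. The day 3 call of STMIS62 was lost without replicate 1 of day 1, and the day 1 call of STMJF14 without replicate 2 of day 1. The 2 clones share no assembly, and neither differed between the days past the test (differences of -0.31 and -0.06, adjusted p = 0.425 and 0.889).

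The 2 clones annotated as auxin-binding protein ABP19a, a germin-like protein described in peach, were the lowest auxin clones on day 1. STMFB56 gave -1.04 and -2.45 on replicates 1 and 2 of day 3, and -2.46 and -1.53 on replicates 1 and 3 of day 1. It was at least 1 below 0 on all 4 arrays. Its fitted ratio was -1.75 on day 3 (SE 0.23, adjusted p = 0.00464) and -2.70 on day 1 (SE 0.32, adjusted p = 0.00161). The day 1 estimate lies below both arrays because it carries over a dye term that rests on 2 day 3 arrays, and the plain mean of the day 1 arrays was -1.99 ± 0.66 (SD, n = 2). Without the dye term STMFB56 passed on day 1 (adjusted p = 0.0154) and not on day 3 (adjusted p = 0.052). STMJA27 gave -0.02, -0.71 and -0.92 on day 3 and -1.60 and -0.87 on day 1. It fell on day 1 (log2 ratio -1.24, SE 0.25, adjusted p = 0.0104), while its day 3 ratio of -0.52 did not pass (adjusted p = 0.228).

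Auxin amidohydrolases release free auxin from its amino acid conjugates. One of the 2 clones with this annotation (STMCM67) gave -1.66, -1.05 and -1.57 on day 3 and -0.50, 0.52 and -0.78 on day 1. The day 3 arrays all lay below the day 1 arrays, and replicate 2 was the highest on both days. The fitted ratio was -1.28 on day 3 (SE 0.13, adjusted p = 0.000553), which is 2.43-fold less in salt leaves, and -0.11 on day 1 (SE 0.13, adjusted p = 0.632). The difference of -1.17 passed (SE 0.18, adjusted p = 0.00511). The dye term of this clone was 0.43 (unadjusted p = 0.00169). The difference lost its call without that term (adjusted p = 0.0787). It also lost it when replicate 1 of day 1 was left out (adjusted p = 0.0507). The clone of the other species (STMGT44), with no shared assembly, gave 0.25, -0.13 and 0.07 on day 3, against -0.01, -0.18 and -0.30 on day 1. It passed on neither. Both clones annotated as GH3.6, which conjugates auxin to amino acids, passed on neither day, with fitted ratios of -0.27 for STMJO34 and -0.06 for STMIB83 on day 3, and of -0.37 and 0.23 in the same order on day 1.

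A clone annotated as auxin growth promotor protein (STMCO71) was lower on both days by a smaller step. It gave -0.87, -0.51 and -0.49 on day 3 and -0.66, -0.52 and -0.57 on day 1. The arrays of both days overlapped, and the fitted ratio was -0.60 on day 3 (SE 0.12, adjusted p = 0.0181) and -0.56 on day 1 (SE 0.12, adjusted p = 0.0119). Its call was lost in 3 of 6 fits with single arrays left out on day 3 and in 2 of 6 on day 1. The other 6 growth promoter clones are annotated as auxin-independent. None of them passed on either day, STMIT40 being tested on day 1 alone. The lowest was STMGL80 on day 1 at -0.42 (adjusted p = 0.0579). PCNT115 (STMDH06), an auxin-induced tobacco protein of the aldo/keto reductase family, gave -0.12 and -0.16 on day 3 and -0.62, -0.41 and -0.58 on day 1. It fell on day 1 (log2 ratio -0.52, SE 0.12, adjusted p = 0.0182) and not on day 3 (-0.14, adjusted p = 0.694), and the difference did not pass (adjusted p = 0.241). Its day 1 call was lost with any day 1 array left out.

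**Figure D2:**
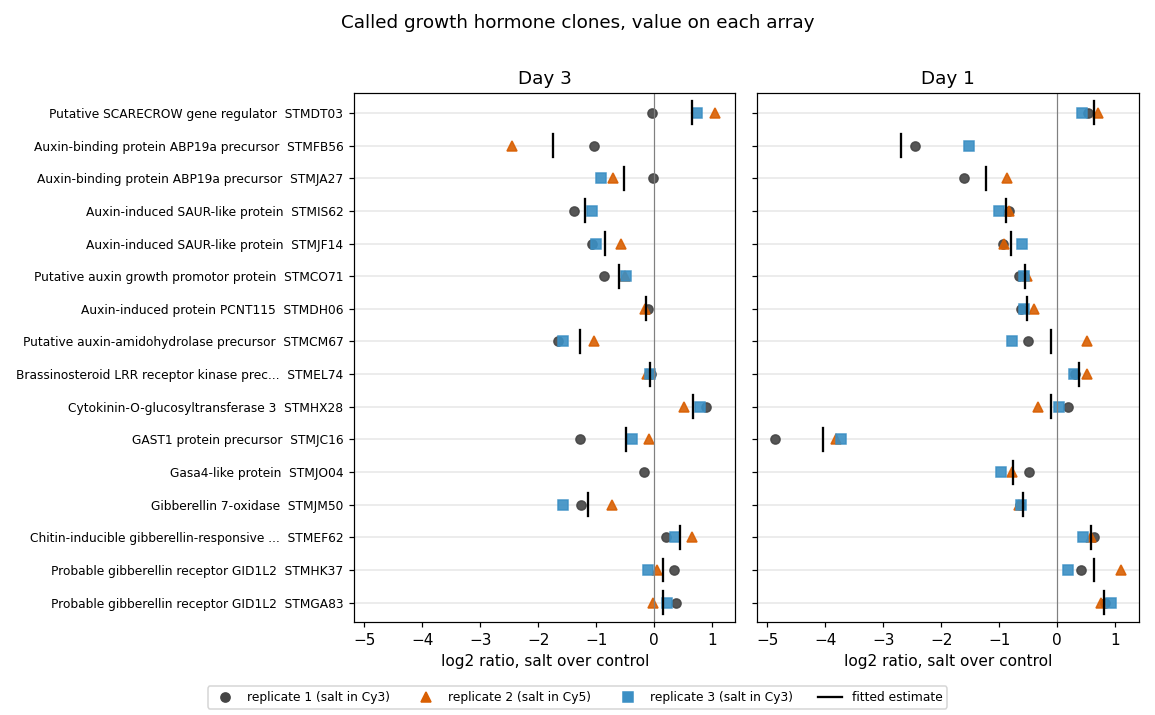
Log2 ratio of salt over control on each array for the 16 hormone clones that passed the test on at least 1 day, with day 3 in the left panel, day 1 in the right panel, symbols for the replicates and a bar for the fitted ratio. The 2 SAUR-like clones, STMFB56, STMCO71 and STMJM50 lie below 0 on every array that measured them, and the day 1 points of STMJC16 lie far below the rest.

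The transport and transcription steps of the auxin pathway showed no call on either day. The clones of auxin response factors had fitted ratios between -0.13 and 0.42 on day 3 (7 tested) and between -0.29 and 0.38 on day 1 (8 tested). The highest was the auxin response factor clone STMGR29 on day 3 (0.42, adjusted p = 0.155), which stood at -0.29 on day 1. The 5 clones of Aux/IAA repressors lay between -0.44 and 0.15 on day 3 and between -0.22 and 0.16 on day 1, the lowest being STMGB57, similar to tobacco Nt-iaa28. The 3 clones of an auxin influx carrier lay between -0.21 and -0.15 on day 3 and between -0.08 and 0.11 on day 1. Of the other auxin clones the highest on day 1 was STMIO18, annotated as auxin-regulated, at 0.40 (adjusted p = 0.136).

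One of the 2 cytokinin clones rose on day 3. Cytokinin-O-glucosyltransferase, by its name, links a sugar to cytokinin. Clone STMHX28, annotated as cytokinin-O-glucosyltransferase 3, gave 0.90, 0.51 and 0.79 on day 3 and 0.18, -0.33 and 0.03 on day 1. All day 3 arrays lay above all day 1 arrays. The fitted ratio was 0.67 on day 3 (SE 0.11, adjusted p = 0.00681), or 1.59-fold more in salt leaves, and -0.10 on day 1 (adjusted p = 0.589), and the difference of 0.77 passed (SE 0.15, adjusted p = 0.0135). The difference lost its call with 4 of the 6 arrays left out in turn, and the day 3 call without replicate 2 of day 3. Cytokinin independent 2 (STMIK02), a histidine kinase in Arabidopsis, gave 0.29 on 1 array of day 3 and 0.39, -0.82 and 1.21 on day 1. On day 1 it was negative on replicate 2 alone, the replicate with the other dye orientation, and it did not pass (-0.01 on day 1).

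Brassinosteroid clones showed 1 call close to the threshold. The clone of a brassinosteroid receptor kinase with leucine-rich repeats (STMEL74) gave -0.05, -0.12 and -0.07 on day 3 and 0.30, 0.51 and 0.28 on day 1. All day 1 arrays lay above all day 3 arrays, and the fitted ratio was -0.07 on day 3 (adjusted p = 0.827) and 0.37 on day 1 (SE 0.11, adjusted p = 0.04996). The day 1 call was lost with 5 of the 6 arrays left out in turn, and the difference of -0.44 did not pass (adjusted p = 0.109). The 2 clones of BRU1, a brassinosteroid-regulated soybean protein of the xyloglucan endotransglycosylase family, share an assembly and passed on neither day. STMEP06 gave fitted ratios of -0.34 on day 3 and 0.07 on day 1, and STMEQ95 gave -0.02 on day 1.

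Of the 8 clones of GRAS regulators named after SCARECROW, an Arabidopsis protein that patterns the root, 1 passed. That is 14.3% of 7 tested on day 3 (against 6.41% of all clones) and 12.5% of 8 on day 1 (against 18.5%). STMDT03, annotated as a SCARECROW gene regulator, gave -0.04, 1.04 and 0.73 on day 3 and 0.53, 0.70 and 0.42 on day 1. Replicate 1 of day 3 was just below 0, and the other 5 arrays were above it. The fitted ratio was 0.65 on day 3 (SE 0.16, adjusted p = 0.0495) and 0.63 on day 1 (SE 0.16, adjusted p = 0.0276), and the day 3 call was lost with 5 of the 6 arrays left out in turn. The day 1 call was lost with any day 1 array left out, under equal scaling of the arrays and without the dye term. The 3 other clones with this annotation had fitted ratios of 0.03 (STMCH65), 0.07 (STMCK18) and 0.22 (STMGI68) on day 3 and 0.31, 0.15 and 0.16 on day 1, all above 0 and none called. The lowest GRAS clone on day 3 was STMJI74 at -0.19, which stood at 0.25 on day 1.

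**Figure D3:**
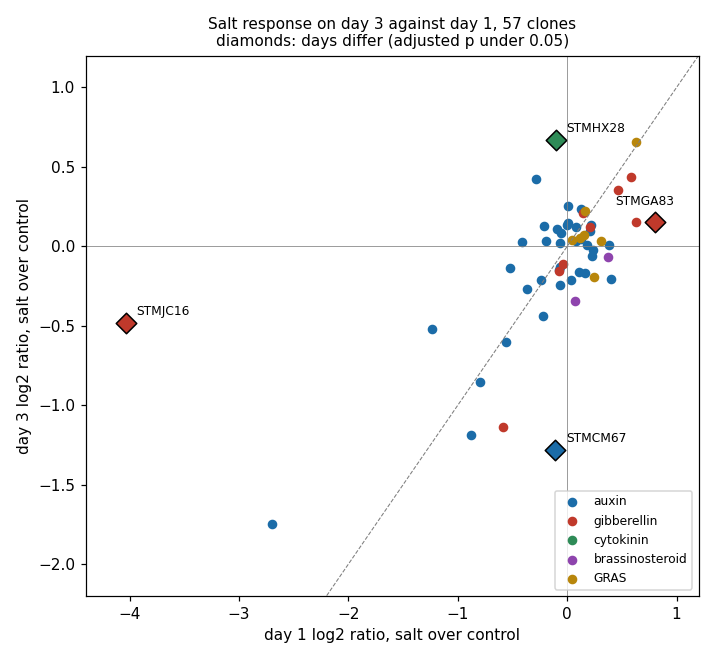
Fitted log2 ratio of salt over control of each hormone clone tested on both days, day 3 on the vertical axis and day 1 on the horizontal axis, with diamonds for the 4 clones whose days differed and a dashed line where both days are equal. STMJC16 lies far to the left at -4.04 on day 1, and STMCM67 lies low at -1.28 on day 3 with a day 1 ratio of -0.11.

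Clones of 1 annotation did not always move together. Among the hormone clones, 32 pairs share an annotation and 9 of those pairs also share an assembly. Of the 48 clones not called, 7 carry the annotation of a called clone. A cDNA clone can also bind transcripts of close relatives of its gene, which was not tested. Replicate 2, with the other dye orientation, had the opposite sign to both other arrays in 18 of 46 hormone clones measured on all 3 day 3 arrays (39.1%, against 19.8% of all clones). On day 1 this held for 17 of 59 (28.8%, against 29.9%). The part of the dyes in the day 3 ratios was not tested beyond the dye term of the fit. That term had an unadjusted p under 0.05 in 15 of 63 hormone clones (23.8%, against 18.7% of all clones). On each day only replicate 2 had salt in Cy5, so a dye effect and an effect of replicate 2 cannot be told apart.

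Other genes of the same pathways were taken by words for hormone synthesis and perception (34 clones) and for cell wall proteins of cell expansion (33 clones), and no clone named a dormancy-associated protein. In the first list 3 clones were higher and 4 lower of 28 on day 3 (25.0%, against 6.41% of all clones). On day 1, 2 were higher and 5 lower of 31 (22.6%, against 18.5%), and the medians were 0.04 on day 3 and 0.07 on day 1. The difference between the days was called in 9 of 28 clones (32.1%, against 11.6%). The 7 calls of day 3 fell to 4 without replicate 2 of day 3, and the 7 of day 1 to 3 without replicate 2 and 4 without replicate 1 of day 1. The share called over all clones also fell in these fits, to 2.19% on day 3, and to 6.11% and 11.2% on day 1. In the cell expansion list 2 clones were higher and 6 lower of 27 on day 3 (29.6%, against 6.41%). On day 1, 1 was higher and 12 lower of 30 (43.3%, against 18.5%), and the medians were -0.19 on day 3 and -0.08 on day 1. The difference between the days was called in 7 of 27 (25.9%, against 11.6%). The 8 calls of day 3 fell to 5 without replicate 2 of day 3 and to 2 with 1 clone per annotation. The 13 calls of day 1 fell to 3 without replicate 2 of day 1 and to 8 with 1 clone per annotation. The 7 for the difference fell to 3 without replicate 1 of day 1 and to 3 with 1 clone per annotation. Over all clones the difference was called in 3.54% without replicate 1 of day 1. The shares over all clones without replicate 2 of each day are those given above for the first list.

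The clone annotated as DIMINUTO (STMGG42), an enzyme of sterol and brassinosteroid synthesis, was much lower on day 3. It gave -3.80, -3.36 and -3.27 on day 3 and -0.33, -0.19 and -0.53 on day 1. The day 3 arrays lay far below those of day 1, and the fitted ratio was -3.44 on day 3 (SE 0.13, adjusted p = 1.9e-06) and -0.32 on day 1 (adjusted p = 0.147). The difference was -3.13 (adjusted p = 7.045e-05). Another clone annotated as DWARF1/DIMINUTO, STMEJ44, fell less on day 3 (-0.56, adjusted p = 0.0173, and -0.27 on day 1), a call lost without replicate 2 of either day. It and the response regulators, STMJJ35, STMIS17, STMEI79 and the LeXET2 clones below, with the other extensin-like clones and the uncalled clones beside them, were chosen after their values were seen.

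In the cytokinin pathway, response regulators act downstream of the histidine kinases. Of 8 clones annotated as a response regulator or as response regulator-like, 3 were higher on day 3 and lower on day 1. Over all clones tested, 1.96% were higher on day 3 and 10.4% were lower on day 1. STMII17, similar to Arabidopsis ARR3, gave 1.52, 1.00 and 0.83 on day 3 and -0.88, -0.93 and -0.81 on day 1. The type A response regulator 10 clone STMGL50 gave 1.79, 0.75 and 0.81 on day 3 and -1.39, -0.90 and -1.27 on day 1. STMJL80, which shares an assembly with it, gave 1.84, 0.85 and 0.53 on day 3 and -0.84, -1.16 and -1.36 on day 1. Every day 3 array was above 0 and every day 1 array below 0. The differences between the days were 1.99, 2.30 and 2.19 (adjusted p = 0.000797, 0.00208 and 0.00353), and each difference kept its call with any single array left out. The calls on single days did not all hold: that of STMJL80 was lost in 3 of 6 such fits on day 3 and in 2 on day 1, and those of STMGL50 and STMII17 in 1 on each day. The other 5 were not called on either day. Of these, STMCZ19 stood at 0.21 on day 3 and 0.04 on day 1, the APRR2-like clones STMDG74 and STMDU59 at 0.06 and -0.27 on day 3 and at 0.15 and -0.20 on day 1, and the ARR17 clone STMJI35 at -0.07 on day 1, while STMJM10 was not tested.

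A histidine kinase clone (STMID55), of the protein class that includes cytokinin receptors, gave 0.21, -0.01 and 0.07 on day 3 and 1.35, 1.34 and 1.10 on day 1. STMJJ35, which shares an assembly with it, gave 0.27, -0.01 and -0.34 on day 3, against 1.06, 1.10 and 0.93 on day 1. Both rose on day 1 (1.26 and 1.04, adjusted p = 0.00026 and 0.00112), and on day 3 they stood at 0.09 and -0.02. The difference between the days lost its call in STMJJ35 without replicate 1 or replicate 2 of day 1. The histidine kinase clones STMHI73 and STMHI90 passed on neither day. Zeatin O-glucosyltransferase attaches glucose to the cytokinin zeatin. Its clones STMDV35 and STMCY29, which share an assembly, fell on day 3 (-1.55 and -1.48, adjusted p = 0.000138 and 0.000336) and stood at 0.02 and 0.06 on day 1, while STMHX28 above rose on day 3. The other clones of this annotation were not called, STMHU58 at -0.22 on day 3 and 0.30 on day 1, and STMGX95 at 0.09 on day 1.

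Among the wall proteins, 3 of 4 clones of expansins, which loosen the cell wall, were lower on day 1 (75.0%, against 10.4% of all clones). The alpha-expansin clone STMDH16 gave 0.21, 0.04 and -0.14 on day 3 and -1.56, -1.90 and -1.96 on day 1. Expansin11 (STMGB59) gave -1.47, -0.02 and -0.41 on day 3 and -2.45, -1.91 and -2.23 on day 1. For both, the day 1 arrays lay below every day 3 array. Their day 1 ratios were -1.81 and -2.08 (adjusted p = 0.000105 and 0.000249), and the differences between the days were 1.84 and 1.57 (adjusted p = 0.000713 and 0.00727). The difference of STMGB59 lost its call without replicate 1 or replicate 2 of day 1. The third, STMIS17, was lower on day 1 by a smaller step (-0.53 on day 3 and -0.87 on day 1, adjusted p = 0.135 and 0.00917), and a beta-expansin clone (STMIQ15) stood at -0.07 and 0.20. An extensin-like clone (STMCR06), similar to structural wall proteins, fell on both days, with ratios of -1.28 on day 3 and -1.26 on day 1. STMGU77, which has the same annotation and shares assemblies with it, stood at 0.32 on day 3 and 0.25 on day 1 and was not called. Of the other extensin-like clones, STMCS50 fell on day 1 (-0.19 on day 3 and -0.87 on day 1, adjusted p = 0.478 and 0.00139), and 4 passed on neither day. The difference of STMCS50 between the days was 0.68 and passed (adjusted p = 0.0321). Xyloglucan endotransglycosylases cut and rejoin wall polymers. Of the clones with xyloglucan in their annotation, 2 of 9 tested on day 3 were lower (22.2%, against 6.41% of all clones). On day 1, 1 was higher and 2 were lower of 12 (25.0%, against 18.5%). The XTH7 clone STMCV68 fell on both days (-1.31 on day 3 and -1.11 on day 1), the day 1 call being lost without replicate 2 of day 1. STMEI79, annotated as xyloglucan endotransglucosylase/hydrolase 1, gave -0.62 on day 3 (adjusted p = 0.116) and -1.48 on day 1 (adjusted p = 0.00112). The tomato LeXET2 clone STMDB57 gave -0.69 on day 3 (adjusted p = 0.104) and 0.98 on day 1 (adjusted p = 0.0124), a call lost with any day 1 array left out. STMER63, which shares an assembly with it, gave -0.92 on day 3 (adjusted p = 0.0151) and 0.48 on day 1 (adjusted p = 0.1), its day 3 call being lost without replicate 1 of day 1 or replicate 2 of day 3.

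**Figure D4:**
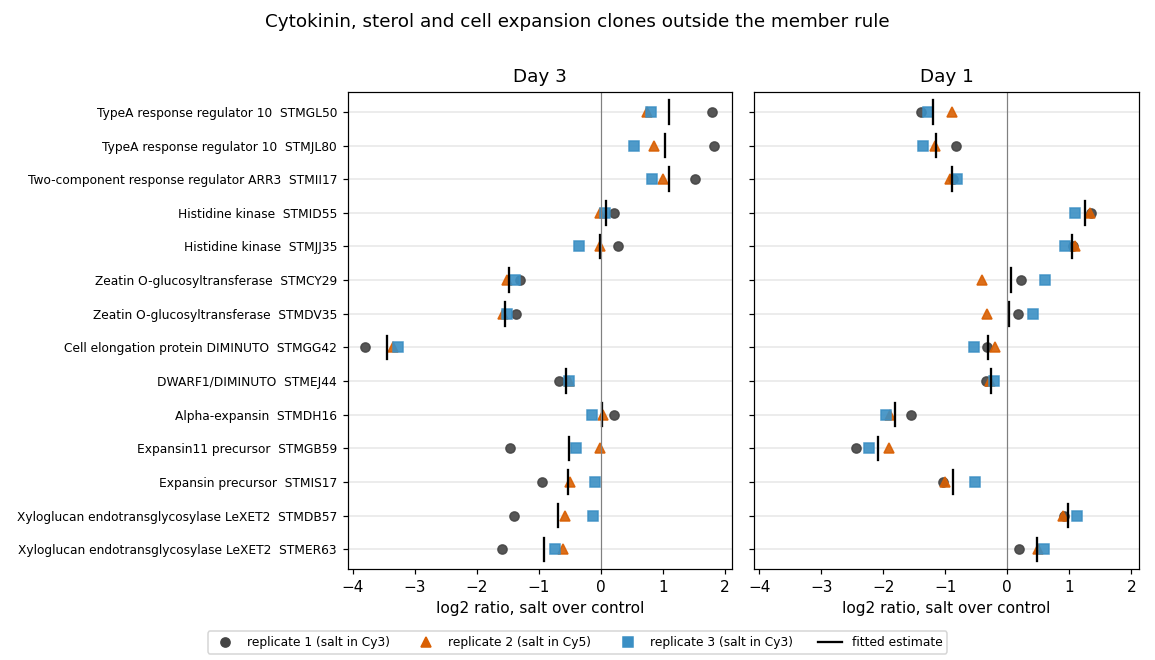
Log2 ratio of salt over control on each array for clones of other growth genes named in the text, with day 3 in the left panel, day 1 in the right panel, symbols for the replicates and a bar for the fitted ratio. The response regulator clones lie above 0 on day 3 and below 0 on day 1, and STMGG42 lies below -3 on day 3.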

How the data were processed

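The deposited tables hold 1 log2 ratio per clone and array for 6 two-colour cDNA arrays, and a p-value that the authors took from a one-sample test on each day, for 9072 clones on day 3 and 10181 on day 1. Log2 ratios were used as deposited by the authors. How the arrays were scanned and normalized, and to which base, was not given in the sources used here. The annotated table, whose ratio columns hold text where a value is missing (unit other), was joined to the deposited value table by the 6 values, which matched for all 10499 clones, with 8 whose values a pair of clones shared. No intensities were used, so the number of arrays limits the precision.

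Ratios of all arrays were fitted with limma 3.58.1 in R 4.3.3, with 1 coefficient per day and a dye term per clone, empirical Bayes moderation and Benjamini-Hochberg adjustment over all clones tested. A day was tested for a clone if at least 2 arrays of that day measured it and its dye term could be estimated, so 6 hormone clones were tested on day 1 alone and 1 on neither day. Fits with a missing array use the remaining ones. SEs share 1 spread per clone over both days. The p-values of this fit are two-sided and rest on the spread between biological replicates that is left after the dye term, moderated over all clones. A shift of replicate 2 shared by both days enters the dye term, so the p-values do not measure the full spread between replicates. The difference is a contrast of the same fit.

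The hormone clones and the other word lists (hormone synthesis and perception, cell expansion, dormancy-associated) were chosen with earlier results of these data known. Clones given array by array are those called on a day or for the difference and those sharing their annotation. In each hormone group the highest and lowest were named, and in each other list up to 4 called clones with the smallest p. The scripts were tested on simulated data. The alternatives tried were leaving out the dye term, arrays centred or scaled, only clones on all arrays, 1 clone per annotation, an adjusted p under 0.1, a replicate block, the authors' p-values, and each array left out. Tables were made with pandas 2.3.3 and NumPy 2.4.6 under Python 3.11.15, statistics with SciPy 1.17.1 and statsmodels 0.14.6, and plots with matplotlib 3.10.9. No clone sequence or genome position was used here.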

Additional observations from a re-analysis of the deposited data

Results flagged for a closer look

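The clones in this paragraph had a fitted ratio that differed between the days by limma's test of the difference itself, given as day 3 minus day 1. Among the hormone clones these were GAST1 (STMJC16, 3.56), the cytokinin-O-glucosyltransferase (STMHX28, 0.77), the GID1L2 clone STMGA83 (-0.64) and the auxin amidohydrolase (STMCM67, -1.17). Among clones of hormone synthesis and perception they were the response regulators STMGL50 (2.30), STMJL80 (2.19) and STMII17 (1.99), the histidine kinases STMID55 (-1.17) and STMJJ35 (-1.06), the zeatin O-glucosyltransferases STMDV35 (-1.57) and STMCY29 (-1.55), and DIMINUTO (STMGG42, -3.13). Among wall proteins they were the expansins STMDH16 (1.84) and STMGB59 (1.57), the LeXET2 clones STMDB57 (-1.67) and STMER63 (-1.40), and the extensin precursors STMGX29 (2.33) and STMIA95 (1.64). With smaller differences, the extensin-like clone STMCS50 (0.68) and, in the hormone synthesis and perception list, the BRI1-KD interacting protein clone STMDF31 (0.67) were also called.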

How the results depend on the processing

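On day 3 the test called 8 hormone clones, and 5 when only clones on all arrays or 1 clone per annotation were used, where fewer clones were tested. With only clones on all arrays that was 11.1%, against 7.4% of all clones. On day 1 it called 14, and 9 with 1 clone per annotation. The difference was called in 4, and in 1 without the dye term (1.75%, against 7.21% of all clones). The cause was not tested. With the authors' deposited p-values, 7 hormone clones on day 3 and 15 on day 1 had p under 0.05, and after Benjamini-Hochberg adjustment 0 and 0. Over all clones, 1017 of 9072 on day 3 and 2033 of 10181 on day 1 had p under 0.05, and after adjustment 1 and 0. With single arrays left out the counts ran from 4 to 8 on day 3, from 2 to 15 on day 1 and from 1 to 4 for the difference. Of 26 calls on single hormone clones, 10 held in every such fit that could test them and 16 were lost in at least 1. The 10 include STMFB56 on both days and STMJA27 and STMJO04 on day 1, which were not measured on every array. Their ratios were the same in each fit that could test them. For these calls, the fits thus could not show how the ratio depends on a single array. Centring the arrays kept 24 of the 26 and equal scaling kept 23; the calls of STMDT03 on day 3 and STMEL74 on day 1 were lost on centring. With 1 clone per annotation, the extensin clones STMGX29 and STMIA95 changed sign on day 3, to -0.22 (adjusted p = 0.495), since clones of 1 annotation were averaged.

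It was not clear from the values whether the replicate numbers pair the days. Deviations of samples with 1 number correlated by 0.05, 0.60 and 0.45. Replicates 2 and 3 of day 3 correlated best with their own number. Replicate 1 of day 3 correlated best with replicate 3 of day 1, but only by 0.059 against 0.046. Replicate 2 had the other dye orientation on both days, so in its correlation a dye effect and a pairing cannot be told apart. The days came from different plants, so the number was not a block in the main fit. A replicate block gave 7 calls on day 3 (13.0%, against 8.82% of all clones). It gave 14 on day 1 (25.9%, against 27.1%) and 5 for the difference (9.26%, against 14.2%). It called GAST1 on day 3 as well (-0.58, adjusted p = 0.0142) and 1 auxin clone higher on day 1.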

Other observations

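Extensins, structural proteins of the cell wall, were split among clones with the same annotation, extensin precursor, and these clones were chosen after their values were seen. Clones STMGX29 and STMIA95 gave fitted log2 ratios of 1.18 and 1.02 on day 3 and of -1.16 and -0.61 on day 1. Clones STMID50, STMIK90 and STMJN80 gave -1.05, -1.14 and -1.13 on day 3 and -0.60, -0.64 and -0.90 on day 1. Of these, STMID50 and STMIK90 share assemblies, so they may stand for the same gene. With single arrays left out, the day 3 calls of STMGX29 and STMIA95 were lost without replicate 2 of day 3 (adjusted p = 0.346 and 0.233), and the difference between the days kept its call in both. The day 1 ratio of STMIA95 ranged from -0.78 to -0.31, and its call was lost without replicate 2 or replicate 3 of day 1. The day 1 calls of STMGX29 and STMJN80 were lost without replicate 2 of day 1, and those of STMID50 and STMIK90 with any day 1 array left out, while the day 3 calls of STMID50, STMIK90 and STMJN80 held in every such fit.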
